A study of Mus musculus with 4 samples.

Results

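The Rag GTPases, the folliculin complex and the MiT/TFE transcription factors form the nutrient-sensing arm that surrounds Rragd, and 10 of its genes were followed here in livers with and without Nrg4. They are the Rag GTPase genes Rragd, Rragc, Rraga and Rragb, the folliculin gene Flcn with its partners Fnip1 and Fnip2, and the transcription factor genes Tfeb, Tfe3 and Mitf. Each of the 10 was taken from the probe set that the platform annotation pairs with that symbol alone, out of 22180 genes so named. Each had 1 such probe set and none shared with another gene, so no choice between probe sets was needed. Rragd was selected on its difference between the genotypes in these same 4 arrays, so that difference is described without a test. The other 9 were picked as its pathway partners.

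Livers came from male mice, either wild type (WT) or Nrg4 knockouts (KO). The gene removed, Nrg4, encodes neuregulin 4, a secreted hormone-like protein that binds ErbB receptors. Mice of both genotypes ate a NASH diet (Research Diets D09100301), which produces fatty, inflamed liver, for 20 weeks from 3 months of age, and their livers were taken in the fed state. Each genotype gave 2 independent pools of liver RNA, and each pool was hybridised to 1 Affymetrix Mouse Gene ST 2.1 array. The sources used here do not give the number of animals in a pool, the knockout allele or the tissues it affects, and no group on another diet was part of the comparison. Values are log2 expression as the authors deposited them, and a difference is KO minus WT on that scale, with its standard error (SE) from limma. Levels of different genes come from different probes and were not compared.

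Rag GTPases sit on the lysosome surface as pairs, RagA or RagB with RagC or RagD, and recruit the growth kinase complex mTORC1 when amino acids are plentiful. Folliculin, with FNIP1 or FNIP2, is the GTPase-activating protein of RagC and RagD. Through these Rag proteins mTORC1 phosphorylates TFEB, TFE3 and MITF and keeps them in the cytoplasm, and when freed they enter the nucleus and switch on genes of lysosomes and autophagy. Rragd is itself known as a target of these factors, and in liver the arm is known for adjusting lysosomes and lipid breakdown to feeding and fasting.

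The sequences in front of the start sites are shown because MiT/TFE factors bind the E-box CACGTG, a palindrome that reads the same on both strands. RefSeq windows (assembly GRCm38.p6) of 250 bases before to 50 bases after each annotated start were found for all 10 genes, 15 windows in all. CACGTG stood in the windows of 3 of the 10 genes, Rragc, Rragb and Fnip1, against 8.09% of the 27025 genes in the table. CATGTG, the core of the M-box that MITF also binds, searched on both strands (CACATG on the other), stood in none of the 15 windows and in 15.9% of all genes. The letters start at base -112 of Rragc, at base -75 of Fnip1, and at bases -127, -36 and -3 of Rragb, counted from -1 just before the start, and the last of these crosses the start. Below are the 250 bases before the start of the gene that stood highest over WT and of the 3 genes with the letters, 5′ to 3′ on each gene's own strand, with whole CACGTG copies in capitals. The stretches are chr4:32982748-32982997 (plus strand) for Rragd, chr4:123917183-123917432 (plus) for Rragc, chr11:54437929-54438178 (plus) for Fnip1 and chrX:153139708-153139957 (plus) for Rragb. A match is a description of these letters, not a binding site, and binding was not measured.
Rragd: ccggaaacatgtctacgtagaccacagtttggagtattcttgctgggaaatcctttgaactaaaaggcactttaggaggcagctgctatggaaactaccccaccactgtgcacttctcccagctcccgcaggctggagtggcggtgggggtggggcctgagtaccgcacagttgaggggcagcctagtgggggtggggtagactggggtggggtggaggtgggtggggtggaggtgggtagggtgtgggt
Rragc: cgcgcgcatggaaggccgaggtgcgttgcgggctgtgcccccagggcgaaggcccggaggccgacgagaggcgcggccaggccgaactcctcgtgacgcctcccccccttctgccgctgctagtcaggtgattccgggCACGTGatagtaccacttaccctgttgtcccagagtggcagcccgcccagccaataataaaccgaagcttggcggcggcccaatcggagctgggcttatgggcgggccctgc
Fnip1: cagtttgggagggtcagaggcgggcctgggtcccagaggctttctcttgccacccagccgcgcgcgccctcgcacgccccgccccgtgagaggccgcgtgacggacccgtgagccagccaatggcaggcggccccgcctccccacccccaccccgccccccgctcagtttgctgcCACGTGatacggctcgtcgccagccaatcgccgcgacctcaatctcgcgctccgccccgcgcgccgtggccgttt
Rragb: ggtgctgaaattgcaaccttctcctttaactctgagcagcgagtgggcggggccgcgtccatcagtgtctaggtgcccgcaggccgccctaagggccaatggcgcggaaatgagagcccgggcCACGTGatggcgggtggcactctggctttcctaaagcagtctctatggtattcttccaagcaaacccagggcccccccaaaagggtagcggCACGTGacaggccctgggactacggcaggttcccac

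Some facts of all arrays bear on every value below. Nrg4 itself read 2.54 and 2.30 in the WT pools and 0.93 in both KO pools, and its probe set was not placed relative to the deleted part. Array medians ran from 0.52 to 0.64, and a gene was tested if its mean reached the table median of 0.54, which left 12458 genes. Of the 10 genes, 8 passed this filter, while Rragb and Tfeb lay under it and are given as values. In these bulk samples, more cells of a type and more RNA per cell cannot be told apart.

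Rragd, the gene the arm was assembled around, stood higher in both KO pools, and none of its tested paralogs and partners passed the test. It encodes RagD, which pairs with RagA or RagB. Its log2 level was 2.31 in WT pool 1 and 2.19 in WT pool 2, against 4.84 in KO pool 1 and 5.001 in KO pool 2. Both KO pools lay above both WT pools, and the gap between genotypes was many times the gap between pools of one genotype, which was 0.12 in WT and 0.17 in KO. The difference of 2.67 ± 0.20 (SE, n = 2 pools each) was the 4th largest increase among the tested genes. It lay between 2.58 and 2.75 when any 1 pool was left out.

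**Figure D1:**
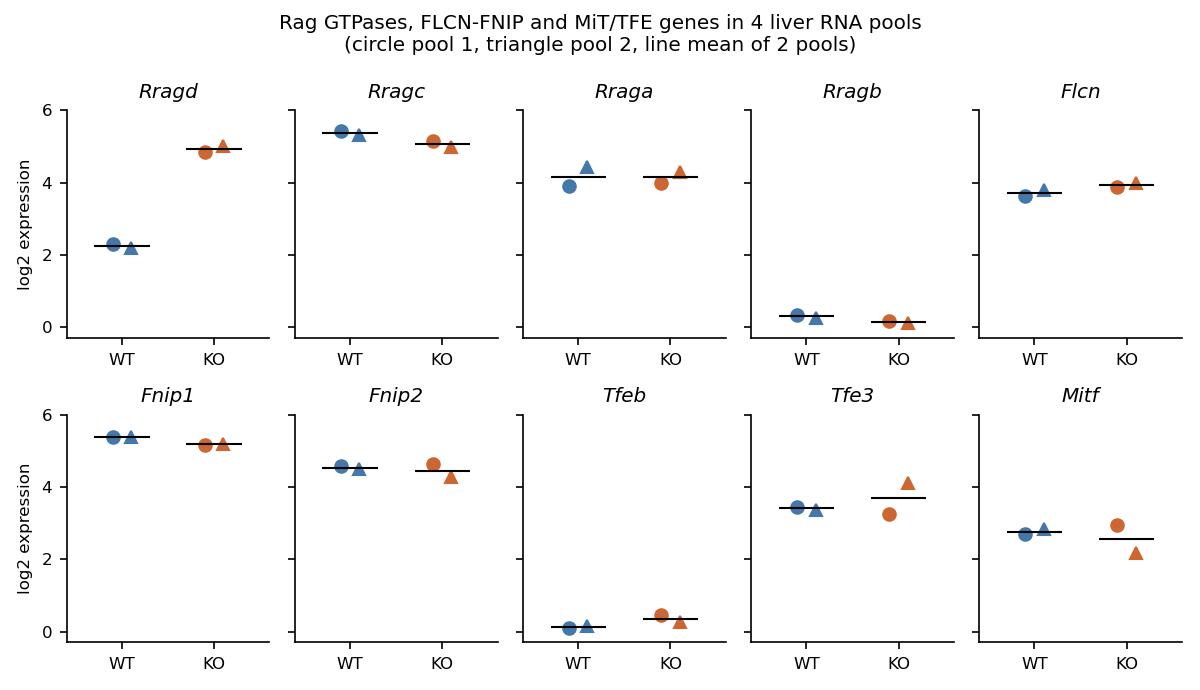
Log2 expression of the 10 genes in each liver RNA pool, with WT in blue, KO in orange, circles for pool 1, triangles for pool 2 and a line at the mean of 2 pools. Rragd rises from near 2.25 to near 4.92, and the other 9 genes stay within 0.31 of their WT mean on average.

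Rragc, which encodes RagC, the closest relative of RagD and its alternative in the pair, did not follow Rragd. It read 5.43 and 5.32 in WT and 5.14 and 4.98 in KO. Both KO pools were below both WT pools, by little more than the gap between pools. Rragc differed by -0.31 ± 0.20 (SE; limma, adjusted p = 0.648), with a 95% confidence interval from -0.79 to 0.17. An increase of the size seen for Rragd therefore lay outside the interval for Rragc.

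Rraga, which encodes RagA, the partner of RagC or RagD, read 3.91 and 4.42 in WT and 3.99 and 4.31 in KO. The pools of the genotypes overlapped. The difference was -0.01 ± 0.26 (SE; limma, adjusted p = 0.989), with an interval from -0.66 to 0.63 and a sign that turned to 0.24 without WT pool 2, to 0.14 without KO pool 1 and to 0.0043 with arrays quantile normalized. Rragb, which encodes RagB, was dim, at 0.33 and 0.26 in WT and 0.16 and 0.12 in KO. All 4 values lay under the table median, where differences are compressed, and the KO pools were the lower ones, with a difference of -0.16 ± 0.19 (SE).

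Of the folliculin complex, Flcn stood slightly higher and Fnip1 slightly lower in KO, neither past the test. Flcn, the gene of the GTPase-activating subunit, read 3.62 and 3.80 in WT and 3.87 and 3.98 in KO. The KO pools were both above the WT pools, but KO pool 1 was above WT pool 2 by less than the gap between the WT pools. Flcn differed by 0.22 ± 0.20 (SE; limma, adjusted p = 0.764), with an interval from -0.27 to 0.70, and by 0.13 without WT pool 1.

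Fnip1, a folliculin partner, was the most even of the genes between pools, at 5.38 and 5.40 in WT and 5.17 and 5.18 in KO. Both KO pools were lower, and the gap between genotypes exceeded the gaps within them, which were 0.02 and 0.01. Because limma draws a gene's variance towards that of other genes, the difference of -0.21 carried an SE of 0.19 (limma, adjusted p = 0.758) and an interval from -0.67 to 0.25. Without any 1 pool it lay between -0.22 and -0.20. Fnip2, the other partner, read 4.58 and 4.49 in WT and 4.63 and 4.27 in KO, so the genotypes overlapped. Its difference was -0.09 ± 0.22 (SE; limma, adjusted p = 0.917), or 0.09 without KO pool 2.

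The MiT/TFE factors Tfe3 and Mitf split the KO pools in opposite ways. Tfe3, a factor found in most tissues, read 3.45 and 3.36 in WT, 3.27 in KO pool 1 and 4.11 in KO pool 2. KO pool 2 was the high one, and KO pool 1 lay just below WT. Mitf, best known from pigment cells and osteoclasts, read 2.69 and 2.84 in WT, 2.95 in KO pool 1 and 2.18 in KO pool 2. Here KO pool 2 was the low one, and KO pool 1 lay just above WT. The gaps between the KO pools, 0.85 for Tfe3 and 0.77 for Mitf, were wide among the tested genes, of which 7.05% and 8.89% had a wider one. The difference of Tfe3 was 0.28 ± 0.31 (SE; limma, adjusted p = 0.806), or -0.14 without KO pool 2. That of Mitf was -0.20 ± 0.30 (SE; limma, adjusted p = 0.862), or 0.19 without KO pool 2. Intervals ran from -0.50 to 1.06 for Tfe3 and from -0.94 to 0.54 for Mitf, so changes of this size in either direction remain possible.

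Tfeb, the factor best known for control of lysosomes, was dim, at 0.09 and 0.16 in WT and 0.46 and 0.25 in KO. Both KO pools were above both WT pools, with a difference of 0.23 ± 0.19 (SE), or 0.13 without KO pool 1, at levels under the table median. Tfec, the MiT/TFE factor that is not among the 10 genes and is mostly found in macrophages, read 1.70 and 2.12 in WT and 1.26 and 1.28 in KO. Its difference was -0.64 ± 0.22 (SE; limma, adjusted p = 0.431), or -0.43 without WT pool 2.

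**Figure D2:**
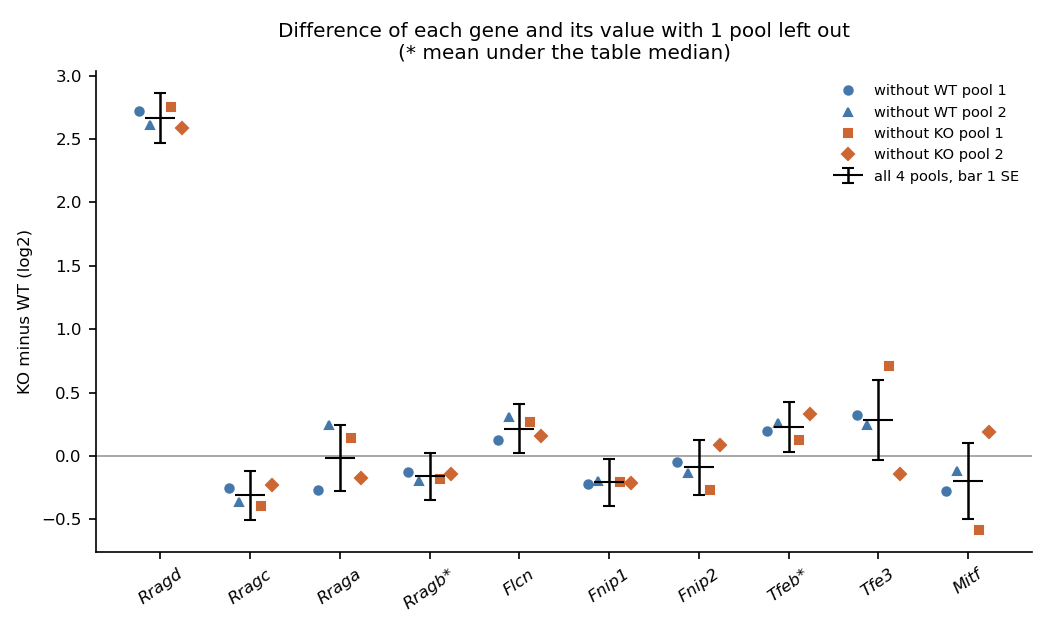
KO minus WT difference of each gene on the log2 scale with 1 SE (black) and its value with each pool left out in turn (blue for a WT pool, orange for a KO pool). Rragd stays between 2.58 and 2.75, while Rraga, Fnip2, Tfe3 and Mitf change sign with a pool left out.

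Of the 7 tested genes of the arm other than Rragd, none passed an adjusted p under 0.05 by limma, where 0.0482% of all tested genes did. None had an unadjusted p under 0.05, where 10.3% of all tested genes did, and none passed with a variance that follows intensity, where 1.09% did. Their adjusted p lay between 0.648 and 0.989. Among these 7, both KO pools lay above both WT pools for Flcn alone, where 22.2% of all tested genes did. They lay below both WT pools for 2 (Rragc and Fnip1), where 19.5% did. Rragd is left out of these counts because its selection fixes its place. The SE of the 8 tested genes, Rragd included, ran from 0.19 to 0.31, so modest changes could go unseen with 2 pools per genotype.

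**Figure D3:**
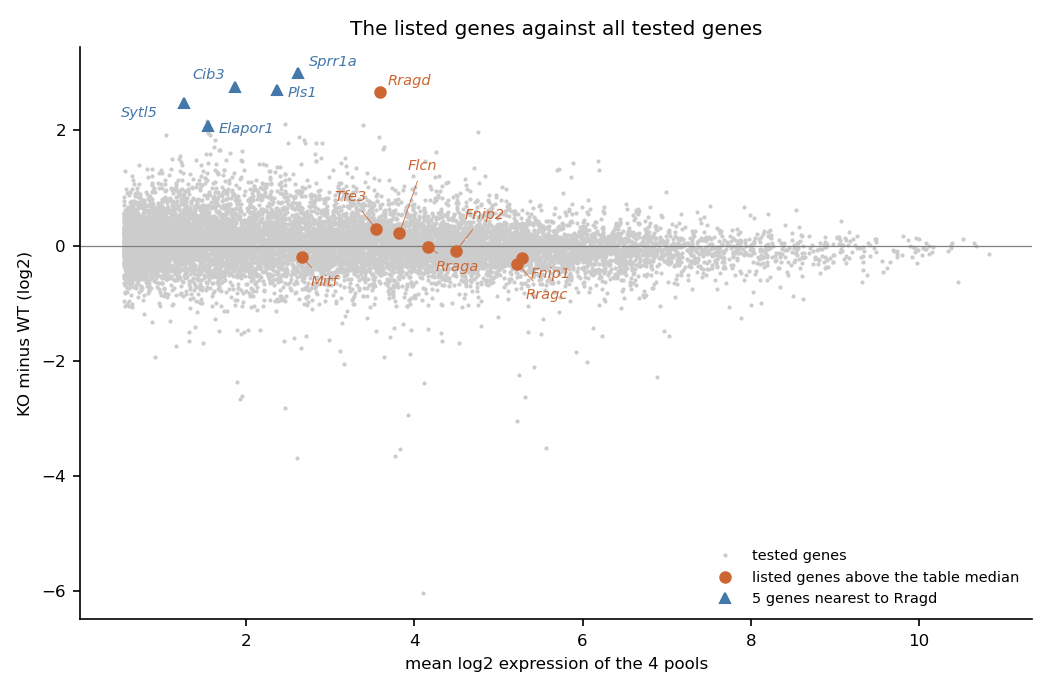
KO minus WT difference against mean log2 expression of the 4 pools for the 12458 tested genes (grey), the 8 listed genes above the table median (orange) and the 5 genes whose pool values were nearest to those of Rragd (blue). Rragd lies at 2.67, and the other 7 orange points lie between -0.31 and 0.28.

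The genes whose values over the 4 pools, each relative to its WT mean, were nearest to those of Rragd were Sytl5, Sprr1a, Pls1, Cib3 and Elapor1, in that order. The measure was the Euclidean distance over 4 arrays, which ranks genes by the same difference that picked Rragd and is given as a description. Sytl5, a synaptotagmin-like protein, lay at a distance of 0.31, with -0.03 and 0.07 in WT and 2.48 and 2.53 in KO. Sprr1a, a protein of the cornified envelope of skin, lay at 0.48, with 1.12 in both WT pools and 4.02 and 4.22 in KO. Pls1, an actin-bundling protein, lay at 0.59, Cib3 at 0.76 and Elapor1 at 0.86. All 5 were higher in both KO pools than in both WT pools, which follows from how they were picked. Sytl5, Cib3 and Elapor1 had WT means under the table median, at 0.02, 0.49 and 0.51, and passed the filter only through their KO values.

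Proteins that tie the Rag pairs to the lysosome or set their nucleotide state showed no gene past the adjusted test by limma. The Ragulator scaffold, which anchors Rag proteins to the membrane, and the arginine-sensing transporter Slc38a9 had 6 tested genes, 2 above 0 and 4 below, with a median of -0.02 against 0.01 over all tested genes, or 0.12 without KO pool 1, 0.06 without KO pool 2 and 0.06 without WT pool 1. Lamtor4, a scaffold subunit, read 3.64 and 3.73 in WT and 3.98 and 4.02 in KO, a difference of 0.32 ± 0.19 (SE; limma, adjusted p = 0.630). Lamtor1, the subunit that holds the scaffold on the membrane, was at -0.35 ± 0.42 with KO pool 1 low at 1.06 and KO pool 2 at 2.34, and stood at 0.29 without KO pool 1. Slc38a9 was at 0.13 ± 0.23, or -0.019 without WT pool 1 and -0.03 without KO pool 2.

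GATOR complexes switch RagA and RagB off or relieve that brake, KICSTOR places them on the lysosome, and sestrins, CASTOR proteins and SAR1B report amino acids to them. Of 19 listed genes 17 were measured and 16 tested, with 7 above 0, 9 below and a median of -0.16, or -0.07 without WT pool 1. None had an unadjusted p under 0.05. The 3 with the smallest p were Nprl3, a subunit of the brake, at 0.40 ± 0.20, the leucine sensor Sesn2 at -0.48 ± 0.24 and Sec13, a GATOR subunit shared with the secretory coat, at 0.40 ± 0.22 (SE each). Sesn2 read 2.29 and 2.70 in WT and 1.85 and 2.18 in KO, with both KO pools lower, and differed by -0.28 without WT pool 2 and by -0.32 without KO pool 1. Sec13 stood at 0.22 without KO pool 2.

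Of mTORC1 and its TSC-Rheb switch, 9 of 10 measured genes were tested, 5 above 0 and 4 below, with a median of 0.13, or -0.06 without KO pool 2 and -0.04 without WT pool 1. Tsc1, which encodes hamartin, a subunit of the complex that turns Rheb off, read 3.01 and 2.79 in WT and 3.48 and 3.73 in KO. Both KO pools were higher, by 0.70 ± 0.21 (SE; limma, adjusted p = 0.379). Rheb, the GTPase that activates mTORC1, was at -0.24 ± 0.19 and Rptor, the mTORC1 subunit that binds Rag pairs, at -0.21 ± 0.21 (SE each), or -0.04 without WT pool 1 and -0.39 without WT pool 2.

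Among the genes of mTORC1 substrates, 9 were tested, 3 above 0 and 6 below, with a median of -0.16, or -0.28 without WT pool 1 or KO pool 2 and -0.08 with arrays quantile normalized. Both KO pools lay below both WT pools for 5 of the 9, where 19.5% of all tested genes did, and nothing particular to so short a list is read from that count. Lpin1, a phosphatidate phosphatase that also acts in the nucleus, had the lowest difference of all listed pathway genes. It read 6.87 and 7.16 in WT and 5.37 and 5.54 in KO. Its difference of -1.56 ± 0.21 (SE; limma, adjusted p = 0.181) did not pass, while it passed with a variance that follows intensity (limma, adjusted p = 0.00212). Atg13, a subunit of the autophagy-starting kinase, was at -0.44 ± 0.19 and the S6 kinase Rps6kb2 at -0.30 ± 0.19 (SE each).

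AMPK, the energy-sensing kinase with which FNIP proteins interact, had 6 tested subunits, 3 above 0 and 3 below, and a median of -0.01, or 0.15 without KO pool 2, 0.05 without WT pool 2, 0.03 without WT pool 1 and 0.06 with arrays quantile normalized. Its subunits Prkab2 and Prkaa1 stood at 0.59 ± 0.27 and 0.43 ± 0.23, and without KO pool 2 at 0.27 and 0.20 and without KO pool 1 at 0.91 and 0.66, while Prkag2 was at -0.07 ± 0.19 and at 0.02 without WT pool 1 (SE each). The V-ATPase, the lysosomal proton pump on which Ragulator docks, had 16 tested subunits, 6 above 0 and 10 below, with a median of -0.03, or 0.0097 without WT pool 1 and 0.05 with arrays quantile normalized. Atp6v1h, a regulatory subunit of the pump, read 4.22 and 4.35 in WT and 3.76 and 3.52 in KO, a difference of -0.65 ± 0.20 (SE; limma, adjusted p = 0.394). Atp6v1d was at 0.35 ± 0.19 and Atp6v0a2 at -0.33 ± 0.24 (SE each), the latter at -0.12 without WT pool 1, -0.55 without WT pool 2 and -0.21 without KO pool 1.

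Lysosomal and autophagy genes of the CLEAR network, the set that TFEB and TFE3 are known to switch on, showed no common direction. Of 45 listed genes 40 were measured and 39 tested, with 23 above 0, 16 below and a median of 0.08, or -0.01 without KO pool 2 and 0.05 without WT pool 2. Both KO pools lay above both WT pools for 12 of the 39 and below for 10, where 22.2% and 19.5% of all tested genes did. Galns, a lysosomal sulfatase, read 2.37 and 1.90 in WT and 3.02 and 2.70 in KO, and differed by 0.73 ± 0.25 (SE; limma, adjusted p = 0.426). Ctss, a cathepsin of antigen-presenting cells, was at 0.54 ± 0.22 and Cln3, a lysosomal membrane protein, at 0.46 ± 0.22 (SE each), or 0.36 without WT pool 2 for Ctss and 0.29 without KO pool 2 for Cln3. The membrane proteins Lamp1 and Mcoln1 and the acid lipase Lipa, named after their values were seen, were at 0.08, -0.01 and 0.01.

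Of the CLEAR genes, 33 had a RefSeq promoter window, and 13 of those (39.4%) held CACGTG, against 8.09% of all genes in the table, tested or not. The list is made of known targets of factors that bind these letters, so this share is only a description of the list. The 13, all tested, had 6 genes above 0, 7 below and a median of -0.01, and the 19 tested without the letters had 12 above, 7 below and a median of 0.12. Over all tested genes the medians were -0.01 with the letters (1125 genes) and 0.02 without (8678 genes). Other known MiT/TFE targets gave 8 tested genes, 5 above 0 and 3 below, with a median of 0.13, or 0.20 without WT pool 1 and 0.06 with the stricter filter. Ctsk, a collagen-cleaving cathepsin, read 0.78 and 0.61 in WT and 1.13 and 1.35 in KO, a difference of 0.54 ± 0.20 (SE; limma, adjusted p = 0.460). The hexokinase Hk2 was at 0.62 ± 0.31, or 0.20 without KO pool 2 and 1.04 without KO pool 1, and the coactivator Ppargc1a at -0.28 ± 0.20, or -0.17 without WT pool 1 (SE each).

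**Figure D4:**
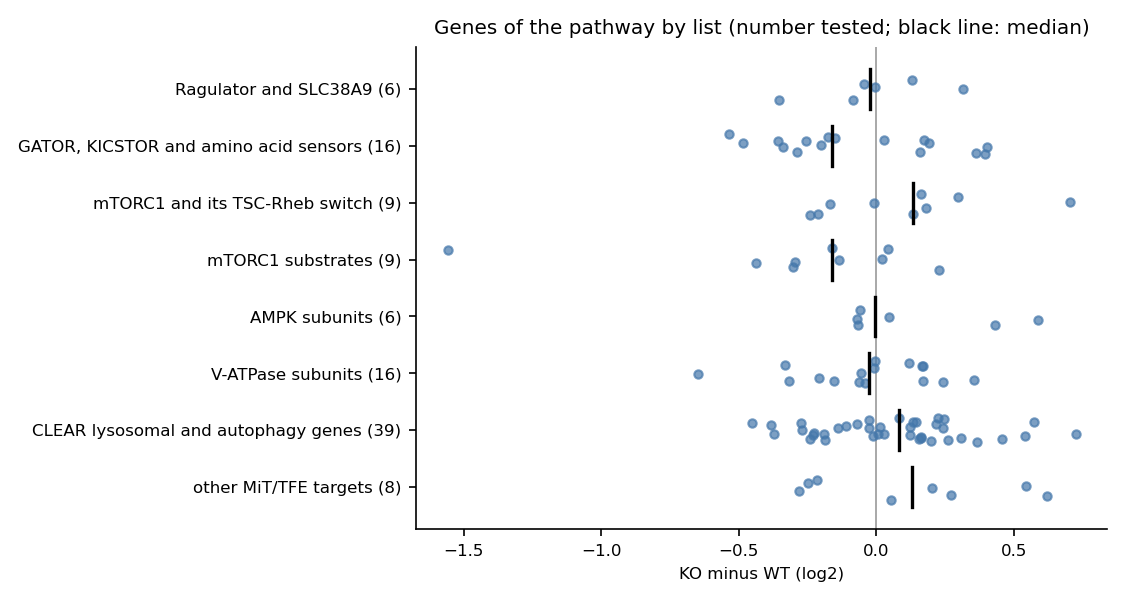
KO minus WT difference on the log2 scale of every tested gene in 8 lists of the pathway (points; vertical scatter only separates them), with the median of each list in black. Medians lie between -0.16 and 0.13, and the point at -1.56 is Lpin1.

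Over the 8 lists and Tfec together, 110 genes were tested, 54 above 0 and 56 below, with a median of -0.004. By limma none passed the adjusted test, 4 stood higher and 3 lower at an unadjusted p under 0.05, where 6.37% and 3.92% of all tested genes did, and 1 (Lpin1) passed with a variance that follows intensity. Both KO pools lay above both WT pools for 27 of the 110 and below for 29, where 22.2% and 19.5% of all tested genes did.

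Markers of several cell types stood higher or lower in the same KO pools, but no tested marker of any type passed the adjusted test by limma. The 7 hepatocyte markers measured had a mean log2 level of 9.48 and 9.46 in WT and 9.36 and 9.38 in KO, with 2 above 0 and 5 below. Cps1, the first enzyme of the urea cycle, was at -0.39 ± 0.19 (SE; limma, adjusted p = 0.564). With a variance that follows intensity it passed (limma, adjusted p = 0.0427), as did 1 macrophage, 1 stellate and 2 cholangiocyte markers. All 9 macrophage markers measured stood above 0, and their mean level was 4.27 and 4.34 in WT and 4.96 and 4.83 in KO, with Cd63 at 0.98 ± 0.20 (SE). Their differences ran from 0.14 to 1.30, and the pools of the genotypes overlapped for 3 of the 9. Macrophages also express Ctss and Ctsk, which were higher in both KO pools, and Tfec, which was lower in both. The part of these cells in the values above was not tested. Of 8 stellate markers 6 were above 0, with means of 4.33 and 4.21 in WT and 4.76 and 4.87 in KO. Pdgfra, at 1.67 ± 0.29 (SE), was the highest of the 8. Lrat, Reln and Des were at 0.11, -0.11 and -0.09, and the pools of the genotypes overlapped for 4 of the 8. Of 6 cholangiocyte markers 5 were above 0, with means of 1.65 and 1.43 in WT and 2.18 and 2.73 in KO and Cdh1 at 1.62 ± 0.28 (SE), and Krt19 stayed between 0.64 and 0.81. The macrophage, stellate and cholangiocyte lists had higher means in both KO pools than in both WT pools. So did the T and NK cell list and, by little, the endothelial list, both given below. The part of these lists in the difference of Rragd was not tested.

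Markers of kidney, muscle and melanocytes had means near the table median or under it in all pools. The 3 kidney markers had mean levels of 0.29 and 0.19 in WT and 0.24 and 0.33 in KO, and those of Slc12a1 and Slc12a3 were under the table median on every array. The 5 muscle markers had means of 0.51 and 0.52 in WT and 0.44 and 0.67 in KO. All 3 of them that were tested were below 0, with Tnnt2 at -0.43 ± 0.20 (SE). The untested Acta1 and Myh7 were above 0, at 0.57 and 0.27, and both KO pools of Acta1 lay above both WT pools. Adipocyte markers had means of 2.41 and 2.39 in WT and 2.27 and 2.33 in KO and did not share a direction, with 2 above 0, 2 below and a median of -0.03. Adipoq was at -1.01 ± 0.28 and Cidec, which fatty hepatocytes also express, at 0.67 ± 0.23 (SE each). Melanocyte markers, listed for Mitf, had means of 0.21 and 0.17 in WT, 0.62 in KO pool 1 and 0.04 in KO pool 2, and Tyr and Mlana were under the table median on every array. KO pool 2 was the lower KO pool for these markers, at levels where folds are compressed. It was also the lower KO pool for Mitf, which lay above the table median in all pools. A link between them was not tested. Endothelial markers had means from 4.93 to 4.997 in all pools, with 3 above 0, 3 below and Cdh5 at 0.33 ± 0.21 (SE). T and NK cell markers had means of 1.15 and 0.92 in WT and 1.39 and 1.26 in KO, with 3 above 0 and 2 below. Cd3g was at 1.07 ± 0.34 and Cd3e at -0.42 ± 0.43 (SE each).

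**Figure D5:**
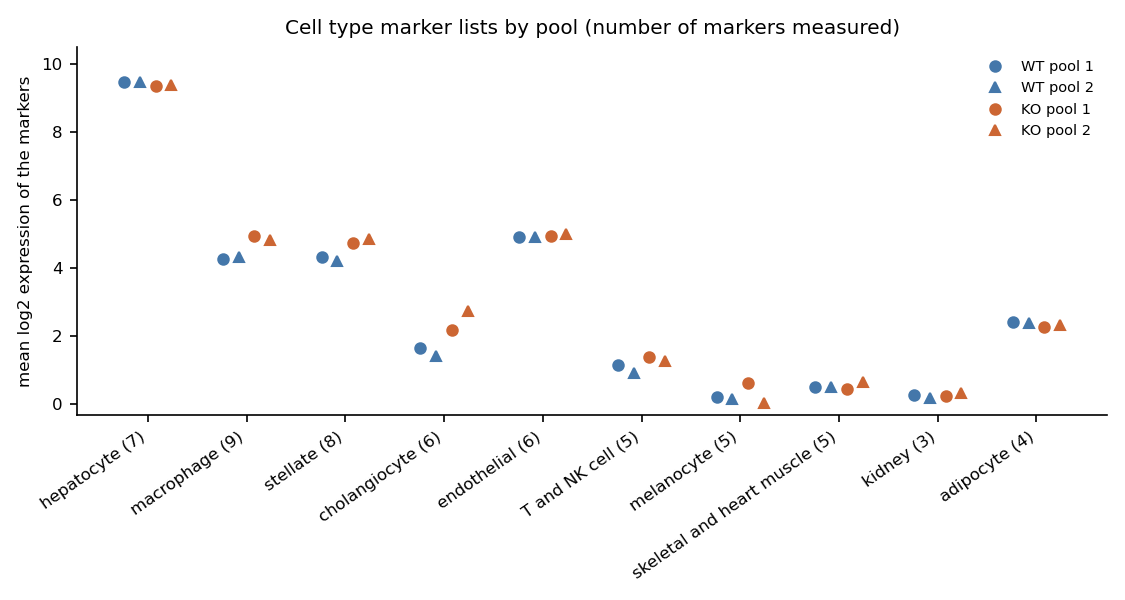
Mean log2 expression of each cell type marker list in each pool, with WT in blue, KO in orange, circles for pool 1 and triangles for pool 2. Hepatocyte markers lie near 9.4 in all pools. The means of macrophage, stellate and cholangiocyte markers are higher in both KO pools than in both WT pools. Those of T and NK cell and, by little, endothelial markers are too.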

How the data were processed

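Liver RNA of 2 WT and 2 KO pools was measured on 4 arrays, with 400 ng of RNA labelled per the labels' protocols. The authors deposited log2 expression values for 41345 probe sets. The tools named in the submitters' processing notes are RMA, oligo and limma, whose versions and order are not given there. Values ran from -1.12 to 11.9, so the zero point of the scale is unknown and dim genes have compressed folds. Precision is limited by having 4 arrays.

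Of the probe sets, 23521 had 1 gene symbol in the platform annotation, 1814 several and 16010 none. Per gene the probe set with the highest mean was kept. Genes whose mean reached the median of the probe set means (0.54) were fitted with limma 3.58.1 (lmFit, eBayes) in R 4.3.3, without covariate, with Benjamini-Hochberg adjustment over 12458 genes, 2 residual and 3.67 prior degrees of freedom. The procedure was also run on data simulated from the fitted variance model, which cannot show whether that model holds for these arrays. P-values weigh a difference against the spread between pools, which limma draws towards that of other genes. The spread between animals within a pool was not measured. An exact permutation of 2 against 2 cannot go below 0.333. Genes under the filter have differences from the fit of all genes. Named are the 10 genes, Tfec, Nrg4 and the 5 genes nearest to Rragd. In each list the 3 genes with the smallest p and any called one are named. In each cell type with tested markers the one with the smallest p is named. Krt19, Cidec, Cd3e, Acta1, Myh7, Lrat, Reln and Des were added after their values were seen. The genes and lists were chosen with earlier results of these data known. Of 125 listed pathway genes 114 were measured. Alternatives are given in the closing section. Promoter sequences are from RefSeq, and no genome was used here.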

Additional observations from a re-analysis of the deposited data

How the results depend on the processing

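Each result was recomputed under 12 alternatives, with array centring, quantile normalization, no or a stricter filter (mean at least 1 above the table median), another variance model, robust eBayes, the mean of probe sets, the replicate block and each pool left out. Rragd lay between 2.58 and 2.75 in all of them. The genes past the adjusted threshold by limma, 6 in all, became 136 with a variance that follows intensity and 0 without any 1 pool. With the replicate number of the labels as a block they were 2. The labels do not say whether same-numbered pools were handled together. Their deviations had r = -0.04 across genes, which cannot settle whether they were. Of the arm, only Rragd was among the 6, which its selection on this difference fixes, and its count of 1 fell to 0 with the block and 0 without any 1 pool. Of its other 7 tested genes none passed in any of the 12. Among the pathway lists 0 passed, and 1 with a variance that follows intensity. Signs turned as follows, with the range over pools left out: Rraga (-0.27 to 0.24, and 0.0043 when quantile normalized), Fnip2 (-0.27 to 0.090), Tfe3 (-0.14 to 0.71), Mitf (-0.58 to 0.19), Lamtor1 (-0.99 to 0.29), Slc38a9 (-0.034 to 0.30) and Prkag2 (-0.16 to 0.021). List medians that turned sign are given with their lists in the report. The cause was not tested. Fewer arrays leave fewer residual degrees of freedom. When a pool is left out, the lone pool of its genotype is assumed to vary like the others.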

Other observations

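The genes next to Rragd in RefSeq were read after its value was seen, 3 measured protein-coding genes on each side. On one side, in order away from Rragd, are Ankrd6, Lyrm2 and Mdn1, and on the other Ube2j1, Gabrr2 and Gabrr1. Lyrm2, a small protein of the LYR motif family, read 2.62 and 2.89 in WT and 3.93 and 3.63 in KO, so both KO pools were higher. Its difference of 1.03 ± 0.22 (SE; limma, adjusted p = 0.290) did not pass over all genes. Ankrd6, which lies between Lyrm2 and Rragd by its start, was at 0.15 ± 0.20, Ube2j1, a ubiquitin-conjugating enzyme of the endoplasmic reticulum, at -0.13 ± 0.30, and Mdn1 at -0.06 ± 0.30 (SE each). Gabrr1 and Gabrr2 were at levels near or under the table median.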
